A study of Mus musculus with 4 samples.

Results

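The 8 genes followed here belong to extracellular purine signalling and were measured in brain myeloid cells of mice fed cuprizone: the P2Y receptors P2ry12, P2ry13 and P2ry6, the P2X channels P2rx7 and P2rx4, the adenosine receptor Adora3, and the ectonucleotidases Entpd1 and Nt5e. They were taken by symbol, and all 8 were among the 32285 genes counted, each listed once. The 4 libraries, 1 per mouse, came from 2 PRMT1FL mice, labelled wild type, and 2 PRMT1Cx3cr1-KO mice, labelled PRMT1-KO. They are also called floxed mice and knockouts here, although both carry the floxed allele. Per the study's methods PRMT1FL is a floxed Prmt1 allele on the C57BL/6 background, and the knockouts also carried Cx3cr1-CreERT, a tamoxifen-inducible Cre under the promoter of the fractalkine receptor gene, which is active in microglia and other Cx3cr1-expressing myeloid cells. All 4 mice ate 0.2% cuprizone, a copper chelator that strips myelin, for 5 weeks, and cells were sorted as CD45+ and CD11b+. The labels place the age of 5 to 6 weeks at the start of the diet, and the study's methods place it at the tamoxifen injections. Per those methods, mice of both genotypes received tamoxifen, 2 weeks before the diet began. The sources do not say whether PRMT1FL mice carried Cre, so deletion of Prmt1 and the Cre allele itself cannot be told apart. With 2 mice a group, the smallest two-sided p of an exact permutation test was 0.333, so genotypes were compared only in models fitted across all genes.

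ATP and ADP leave stressed or dying cells and act on neighbouring microglia. P2X receptors are ATP-gated cation channels and P2Y receptors couple to G proteins. P2ry12, the receptor for ADP that steers microglial processes to injury, is a standard marker of homeostatic microglia; P2ry13 is its neighbour and also binds ADP; P2ry6 binds UDP and drives phagocytosis; P2rx7 opens at high ATP and triggers the NLRP3 inflammasome; P2rx4 is a channel that also resides in lysosomes. Entpd1 encodes CD39, which cleaves ATP and ADP to AMP, Nt5e encodes CD73, which cleaves AMP to adenosine, and Adora3 is a receptor for that adenosine.

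P2ry12 and P2ry13 lie side by side on chromosome 3. P2ry12 spans chr3:59216272-59262871 and P2ry13 spans chr3:59207892-59210882, both on the minus strand, 5389 bases apart (GENCODE M21, mm10), and both lie within Med12l, which runs on the opposite strand. P2rx7 (chr5:122643911-122691432) and P2rx4 (chr5:122707544-122729738) are also neighbours, both on the plus strand and 16111 bases apart. Entpd1 spans chr19:40612366-40741602 on the plus strand, P2ry6 chr7:100937630-100974649 on the minus strand, and Nt5e chr9:88327197-88372092 on the plus strand. Adora3 (chr3:105870858-105908926) shares its strand and most of its span with Tmigd3, so reads from the shared part cannot be assigned with certainty. The kit primes at the 3′ end of transcripts. Med12l itself was counted at 19.3 CPM (the gene's UMIs scaled to a common total per sum of cells, mean of 4 mice) and Tmigd3 at 0.816 CPM.

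The 250 bases before the RefSeq start sites are shown for the ADP receptor pair and for Entpd1, because the pair had the most alike levels over cell states of any 2 members and Entpd1 the largest difference of any member between genotypes within a state. Sequences are from RefSeq on GRCm38.p6, 5′ to 3′ on the strand of the gene. Capitals mark GAGGAA, a core letter string of PU.1 sites, and GGAAGT, a core of ETS-family sites, each searched on both strands; the strings can overlap in GGAA.
P2ry12, chr3:59262986-59263235, minus strand: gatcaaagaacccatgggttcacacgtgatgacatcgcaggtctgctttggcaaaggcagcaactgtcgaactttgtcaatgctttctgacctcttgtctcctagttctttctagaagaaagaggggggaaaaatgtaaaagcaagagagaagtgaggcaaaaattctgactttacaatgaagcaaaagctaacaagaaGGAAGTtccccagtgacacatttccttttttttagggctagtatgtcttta
P2ry13, chr3:59210883-59211132, minus strand: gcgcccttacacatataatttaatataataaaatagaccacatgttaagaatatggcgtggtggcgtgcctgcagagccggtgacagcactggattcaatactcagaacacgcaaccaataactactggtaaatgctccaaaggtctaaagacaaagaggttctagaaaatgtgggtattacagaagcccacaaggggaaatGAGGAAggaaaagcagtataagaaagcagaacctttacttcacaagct
Entpd1 upstream start, chr19:40612116-40612365, plus strand: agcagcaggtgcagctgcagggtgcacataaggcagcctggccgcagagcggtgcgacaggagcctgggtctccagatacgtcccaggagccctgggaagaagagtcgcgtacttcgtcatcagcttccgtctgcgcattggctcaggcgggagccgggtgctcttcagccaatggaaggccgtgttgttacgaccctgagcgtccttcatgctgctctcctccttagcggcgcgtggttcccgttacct
Entpd1 downstream start, chr19:40659520-40659769, plus strand: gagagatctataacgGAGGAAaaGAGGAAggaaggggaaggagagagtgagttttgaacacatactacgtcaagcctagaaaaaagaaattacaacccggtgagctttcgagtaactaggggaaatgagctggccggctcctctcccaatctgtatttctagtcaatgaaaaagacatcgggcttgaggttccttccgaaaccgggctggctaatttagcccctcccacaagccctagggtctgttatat
Counted back from the start site, GGAAGT began at base -51 before P2ry12, GAGGAA at base -48 before P2ry13, and GAGGAA at bases -235 and -227 before the downstream start of Entpd1. The upstream start of Entpd1 held neither. Either string occurred in 36.7% of 32851 RefSeq promoter windows of this length, GAGGAA in 23.3% and GGAAGT in 19.7%, so the matches are a description of these letters only. Of the 8 genes, 7 had an entry; P2ry6 is named only.

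Libraries held 76943248 to 99559644 UMIs over 8284 to 11554 barcodes, of which 8170 to 11427 passed the filters, and 31 to 46 barcodes recurred between any pair of libraries. Microglia made up 7811 to 10980 cells of a mouse, with median depths of 6234.5 to 7080 UMIs. Prmt1 stood at 90.9 and 83.9 CPM in PRMT1FL microglia and 70.3 and 70.7 CPM in PRMT1Cx3cr1-KO microglia, a log2 fold change of -0.39 that did not pass the test over all microglia (adjusted p = 0.078, edgeR) and passed in DESeq2 (adjusted p = 0.00122) and with the state as a term (adjusted p = 7.26e-07, limma). The limma fits, here and below, use several sums of each mouse, so their p-values do not rest on mice alone. Within states Prmt1 was below 0 in all 6 and passed in 3 (edgeR). These were D/E-like cells (-0.55, adjusted p = 0.00459), C1/C2-like cells (-0.33, adjusted p = 0.0477) and cluster 3 (-0.41, adjusted p = 0.0145). The sources do not say which exons are floxed, and 3′ counts can include transcripts that lack them, so the size of the difference does not measure how far the gene was deleted. Clusters were built without the 58 purinergic genes and without 1414 genes that, over all cells, had an adjusted p under 0.05 between genotypes or an absolute log2 fold change over 1 with an unadjusted p under 0.05. They were named from homeostatic markers (D/E-like), cytokine markers such as Il1b and Tnf (C1/C2-like), mitotic markers (A1-like) and interferon-induced markers (interferon-like), or left as numbers: cluster 0 was led by Gpnmb, and cluster 3, with a median of 4371.5 UMIs, by haemoglobin genes and mitotic genes. D/E-like cells had the highest Tmem119, a defining marker of microglia, at 846.3 CPM against 265.9 to 466.8 CPM in the other 5 states. B1-like cells were too rare for a fit in a state of their own (488 cells, 393 of them in PRMT1Cx3cr1-KO mouse 2). The 3 erythroid markers summed to 218 and 84.1 CPM in PRMT1FL microglia and 0.0612 and 0.0107 CPM in PRMT1Cx3cr1-KO microglia, and all 67 neutrophil-like cells came from PRMT1FL mice. The 8 markers of border-associated macrophages summed to 21.6 and 22.3 CPM in PRMT1FL microglia and 38.8 and 103 CPM in PRMT1Cx3cr1-KO microglia. The part of these cells in the results was not tested. Without cluster 3, or without B1-like cells, no member passed in the microglial sums either.

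In the sums over all microglia the members together took 0.0987% and 0.109% of UMIs in the floxed mice and 0.111% and 0.114% in the knockouts. Both ADP receptors and Nt5e were higher in both knockout mice than in either floxed mouse, P2rx4 and Entpd1 were lower in both, and P2ry6, P2rx7 and Adora3 overlapped. That count of 5 non-overlapping members of 8 stood against 56.1% of all 13843 genes tested, 38.8% higher and 17.3% lower. None of the 8 passed the test over all microglia, in which edgeR called 65 genes, or 0.47%, at an adjusted p under 0.05. At an unadjusted p under 0.05, 2723 genes lay below the threshold. The median log2 fold change of the 8 members was -0.05, against -0.004 for all genes tested. In sums of this kind, a shift in the cells of each state and a change of RNA per cell cannot be told apart.

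**Figure D1:**
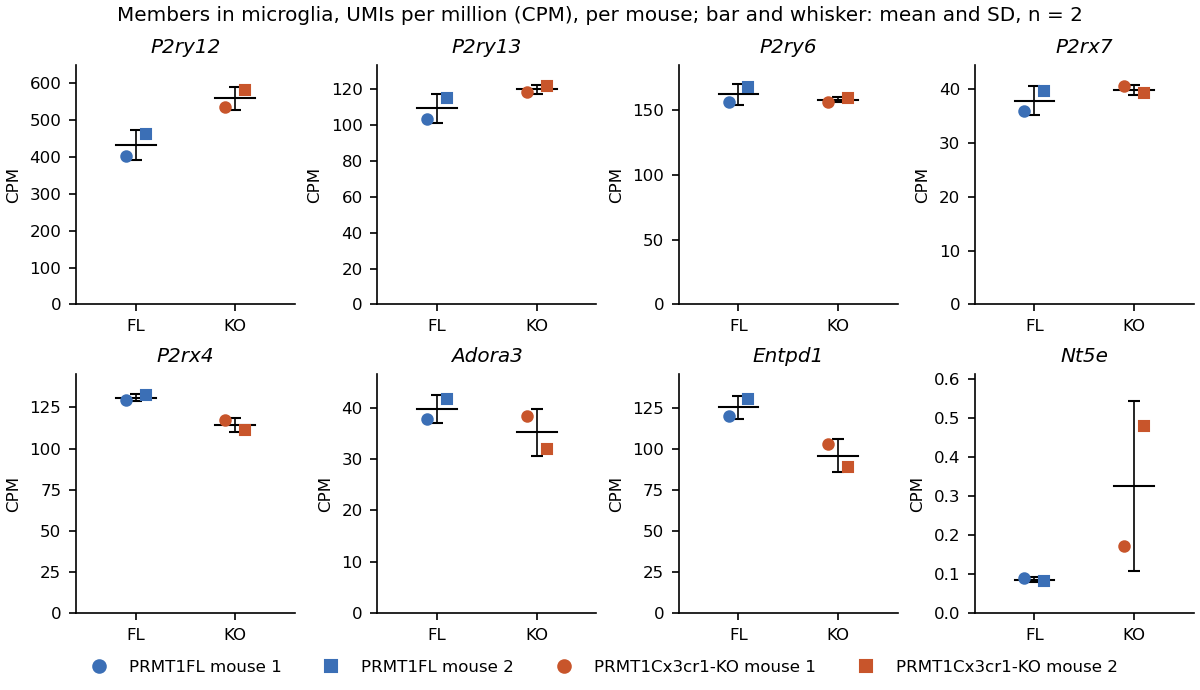
Level (CPM, linear axis from 0) of the 8 members in the summed microglia of each mouse; points are mice, bars are means and whiskers are SDs (n = 2 mice per genotype; FL is PRMT1FL, KO is PRMT1Cx3cr1-KO). P2ry12 lay at 403 and 462 CPM against 537 and 582 CPM, Entpd1 at 120.5 and 131 CPM against 103 and 89.0 CPM, and Nt5e below 0.5 CPM in every mouse.

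P2ry12 was counted at 403 and 462 CPM in PRMT1FL microglia and at 537 and 582 CPM in PRMT1Cx3cr1-KO microglia. The means were 432 ± 41.4 and 559.5 ± 31.6 CPM (SD, n = 2 each), and the gap between the groups was wider than the gap within either. The log2 fold change was 0.30 (SE 0.09, adjusted p = 0.152, edgeR). DESeq2, which called 5.11% of genes, put the adjusted p at 0.0428, and a limma fit with the cell state as a term, which called 23.2%, put it at 0.000118 with a log2 fold change of 0.29. Without PRMT1FL mouse 1 the value was 0.20 and without PRMT1FL mouse 2 it was 0.40, neither past the threshold. Leaving out PRMT1Cx3cr1-KO mouse 1 gave 0.33 with an adjusted p of 0.0187, in a fit that called 18.5% of genes.

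P2ry13 stood at 103, 115, 118 and 121 CPM in PRMT1FL mice 1 and 2 and PRMT1Cx3cr1-KO mice 1 and 2. The 4 values followed closely on each other, with the knockouts at the top. Its log2 fold change was 0.06 (SE 0.07, adjusted p = 0.693) and fell to -0.02 without PRMT1FL mouse 1.

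P2ry6 was measured at 157 and 168 CPM in PRMT1FL and at 156.8 and 159.6 CPM in PRMT1Cx3cr1-KO microglia, with overlap. The log2 fold change was -0.11 (adjusted p = 0.391).

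P2rx7 was counted at 35.9 and 39.8 CPM in PRMT1FL and at 40.6 and 39.25 CPM in PRMT1Cx3cr1-KO mice, with overlap. Its log2 fold change of 0.004 (SE 0.08, adjusted p = 0.985) took either sign as cells or mice were left out.

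P2rx4 was lower in both knockouts, at 117 and 111 CPM, than in both floxed mice, at 129 and 133 CPM. The log2 fold change was -0.27 (adjusted p = 0.123); with the state as a term it was -0.23 (adjusted p = 0.0033, limma), and the fit that left out PRMT1Cx3cr1-KO mouse 1 gave -0.33 (adjusted p = 0.00561).

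Adora3, the only adenosine receptor above 10 CPM, was counted at 37.9 and 41.7 CPM in PRMT1FL and at 38.4 and 31.9 CPM in PRMT1Cx3cr1-KO microglia. PRMT1Cx3cr1-KO mouse 2 alone was below the floxed mice. The log2 fold change of -0.25 (adjusted p = 0.293) was -0.41 without PRMT1Cx3cr1-KO mouse 1, where it passed (adjusted p = 0.00318), and -0.10 without PRMT1Cx3cr1-KO mouse 2. With the state as a term it was -0.23 (adjusted p = 0.0218, limma).

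Entpd1 had 120.5 and 131 CPM in PRMT1FL microglia and 103 and 89.0 CPM in PRMT1Cx3cr1-KO microglia. The means were 125.5 ± 7.14 and 96.0 ± 9.98 CPM (SD, n = 2 each), and the groups did not overlap. Its log2 fold change of -0.46 was the largest among the members above 10 CPM, with an SE that left it short of the threshold (adjusted p = 0.0987, edgeR). It passed in DESeq2 (adjusted p = 0.00378), with the state as a term (-0.46, adjusted p = 1.98e-05, limma), and in edgeR without PRMT1Cx3cr1-KO mouse 1 (-0.59, adjusted p = 0.000161) or without PRMT1Cx3cr1-KO mouse 2 (-0.33, adjusted p = 0.0197, in a fit that called 6.94% of genes). It did not pass without PRMT1FL mouse 1 (-0.52) or PRMT1FL mouse 2 (-0.40). With no filter on low counts, where 7.78% of genes were called, P2ry12, P2rx4, Entpd1 and Nt5e passed.

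Nt5e was barely detected. Its UMIs over all microglia numbered 8 and 6 in the floxed mice, against 14 and 45 in the knockouts, or 0.0907, 0.0822, 0.172 and 0.48 CPM. Most of the knockout UMIs came from PRMT1Cx3cr1-KO mouse 2, of which 22 lay in cluster 0, 9 in C1/C2-like cells and 8 in A1-like cells. The fitted log2 fold change was 1.83 (adjusted p = 0.177) and was 0.92 without that mouse. Of microglia, 0.179% held an Nt5e UMI (95% exact binomial interval 0.14 to 0.226%, counting error only) at a median depth of 6613 UMIs. In non-myeloid cells, which may express the gene themselves, 1.07% held one at a median depth of 2648.5 UMIs, and all 7 of their UMIs lay in PRMT1FL mice. Whether the microglial UMIs came from free RNA was not tested.

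Among the 6 states, D/E-like cells stood highest in CPM for 6 of the 7 members other than Nt5e. These levels are a description, since states were cut from the same cells. D/E-like cells made up 18.15 to 20.02% of the microglia of each mouse. P2ry12 was at 1429 and 1472 CPM in D/E-like cells of PRMT1FL mice and at 1804 and 1864 CPM in those of PRMT1Cx3cr1-KO mice, against 256 to 456 CPM in the other 5 states of any mouse. Below D/E-like, the order A1-like, cluster 0, interferon-like, C1/C2-like, cluster 3 had overlapping ranges at each step, from a mean of 392.5 down to 322 CPM. Within each mouse, the CPM of P2ry12 in D/E-like cells was 4.25 to 4.78 times that in the other microglia. CPM is relative to the total of the cells, and D/E-like cells were shallower (median 3608.5 UMIs). Over all mice they were 19.05% of microglia and held 34.37% of the microglial P2ry12 UMIs. Their shares were 24.53% for P2ry13, 23.8% for Adora3, 23.12% for Entpd1, 20.23% for P2rx7, 19.87% for P2ry6 and 11.52% for P2rx4. When each cell was thinned to 1000 UMIs, 75.6% of D/E-like cells and 24.6 to 31.5% of cells in the other 5 states held a P2ry12 UMI.

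P2ry13 was also highest in D/E-like cells, at lower contrast. It stood at 255 to 293 CPM there and 63.8 to 113 CPM elsewhere, a ratio of 2.468 to 3.102 within mice. Interferon-like cells, cluster 0 and A1-like cells overlapped in the middle. C1/C2-like cells lay below A1-like cells without overlap, and overlapped cluster 3.

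P2ry6 reached 288 to 325 CPM in D/E-like cells. Next came C1/C2-like cells at a mean of 163 CPM, whose range overlapped that of cluster 0; interferon-like cells overlapped cluster 0 as well, A1-like cells were lower at 125 CPM, and cluster 3 was lowest at 74.0 CPM. The D/E-like CPM was 2.05 to 2.24 times that of the other microglia. By UMIs, D/E-like cells held 19.87% of the microglial total of P2ry6, beside 19.05% of the cells.

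P2rx7 stood at 67.5 to 81.0 CPM in D/E-like cells. Cluster 0, C1/C2-like, interferon-like and A1-like cells overlapped at each step, with means of 36.9 to 30.7 CPM, and cluster 3 was lowest at 19.1 CPM. The CPM ratio of D/E-like to other microglia was 1.84 to 2.36. By UMIs, D/E-like cells held 20.23% of the microglial total of P2rx7, beside 19.05% of the cells.

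P2rx4 was the exception to this order. Interferon-like cells led with 154, 168, 133 and 128 CPM, overlapping D/E-like cells at 141, 138, 137.5 and 130 CPM, which overlapped cluster 0 and C1/C2-like cells. A1-like cells (79.0 to 93.1 CPM) and cluster 3 (57.8 to 69.0 CPM) were below without overlap. The CPM ratio of D/E-like to other microglia was 1.05 to 1.20, and 0.876 to 1.22 after thinning. By UMIs, D/E-like cells held 11.52% of the microglial total of P2rx4, beside 19.05% of the cells.

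Adora3 was at 75.3 to 92.9 CPM in D/E-like cells, 2.23 to 3.32 times its level in the other microglia. Interferon-like cells came next with 35.8 to 62.9 CPM, in a range that overlapped cluster 0, and cluster 3 closed the order at a mean of 19.5 CPM.

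Entpd1 was the member whose D/E-like level differed most clearly between genotypes. D/E-like cells held 318 and 322 CPM in the floxed mice but 200.1 and 173 CPM in the knockouts, against 46.9 to 126 CPM in the other 5 states. The ratio of D/E-like to other microglia was 3.16 and 2.96 in the floxed mice and 2.20 and 2.19 in the knockouts. C1/C2-like, interferon-like and cluster 0 cells overlapped, and cluster 3 was lowest.

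**Figure D2:**
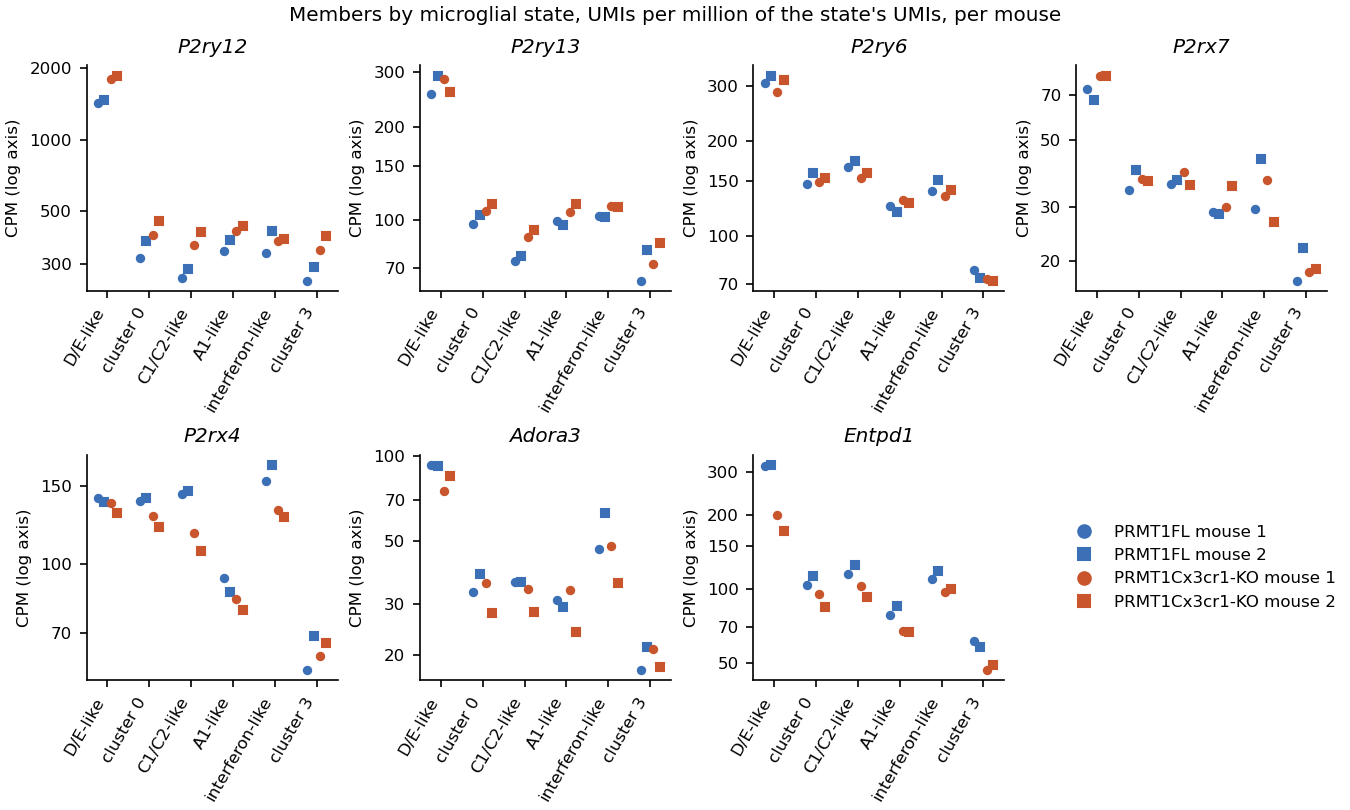
Level in each state (CPM, log axis) of the 7 members measured in every state, by state and mouse; each point is a mouse. D/E-like cells lie above the others for every panel except P2rx4, where interferon-like cells overlap them, and Entpd1 is split by genotype within D/E-like cells (318 and 322 against 200.1 and 173 CPM).

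Genotypes were next compared inside each state, over 42 pairs of 7 members and 6 states; Nt5e was too rare to be tested in any. Of the 42, 5 passed. In D/E-like cells, where 16.3% of 11438 genes were called (8.61% higher, 7.72% lower), P2ry12 rose and Entpd1 fell. In C1/C2-like cells, where 2.86% of 11728 genes were called (1.58% higher, 1.29% lower), P2ry12 rose and P2rx4 fell. In cluster 3, where 3.16% of 10215 genes were called (1.66% higher, 1.5% lower), Entpd1 fell. No member passed in cluster 0 (1.03% called), A1-like cells (0.151%) or interferon-like cells (0.851%).

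Entpd1 fell by 0.80 on the log2 scale in D/E-like cells (SE 0.10, adjusted p = 0.000485, edgeR). It kept an adjusted p of at most 0.00318 when any 1 mouse was left out, with values of -0.92 to -0.67. It was -0.75 (adjusted p = 0.0011) when the purinergic genes took part in the clustering and -0.81 (adjusted p = 0.0007) when no gene was left out of it. In cluster 3 the log2 fold change was -0.44 (SE 0.09, adjusted p = 0.0181), from 61.3 and 58.3 CPM to 46.9 and 49.0 CPM; the adjusted p was 0.101 without PRMT1FL mouse 1 and 0.0728 in DESeq2. In C1/C2-like cells it was -0.37 (adjusted p = 0.0593), and over all 6 states it lay between -0.80 and -0.24.

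P2ry12 in D/E-like cells had a log2 fold change of 0.32 (SE 0.09, adjusted p = 0.0291). The call was not kept without PRMT1FL mouse 1 (adjusted p = 0.168) or PRMT1FL mouse 2 (0.0997), at a finer clustering (0.27, adjusted p = 0.0501), or when no gene was left out of the clustering (0.24, adjusted p = 0.116). In C1/C2-like cells it rose from 262 and 286 CPM to 360 and 408 CPM, a log2 fold change of 0.40 (SE 0.08, adjusted p = 0.0395). That call was lost when either PRMT1FL mouse or PRMT1Cx3cr1-KO mouse 2 was left out (adjusted p = 0.329, 0.108 and 0.111), without marked doublets (0.37, adjusted p = 0.0655), at the finer clustering (0.33, adjusted p = 0.131) and with another clustering seed (0.25, adjusted p = 0.183). In cluster 3 the log2 fold change was 0.32 (adjusted p = 0.0612), and interferon-like cells gave -0.01.

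P2rx4 in C1/C2-like cells fell from 144 and 146 CPM to 117 and 107 CPM, by 0.45 on the log2 scale (SE 0.08, adjusted p = 0.0214). Its call was lost without the same 3 mice (adjusted p = 0.103, 0.132 and 0.0653) and with another clustering seed (-0.35, adjusted p = 0.0955). In D/E-like cells its log2 fold change was -0.08 (adjusted p = 0.538), and values in all 6 states were below 0.

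The other members passed in no state. Adora3 was below 0 in all 6 (log2 fold change -0.36 to -0.12, lowest adjusted p = 0.0903, in D/E-like cells at -0.23). When no gene was left out of the clustering, Adora3 in D/E-like cells was -0.37 and passed (adjusted p = 0.0118). P2ry6 ranged from -0.21 to 0.04, P2ry13 from -0.03 to 0.18 and P2rx7 from -0.19 to 0.18. P2rx7 in D/E-like cells was at 73.3 and 67.5 CPM against 81.0 and 80.8 CPM, with a log2 fold change of 0.18 (adjusted p = 0.165, edgeR).

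**Figure D3:**
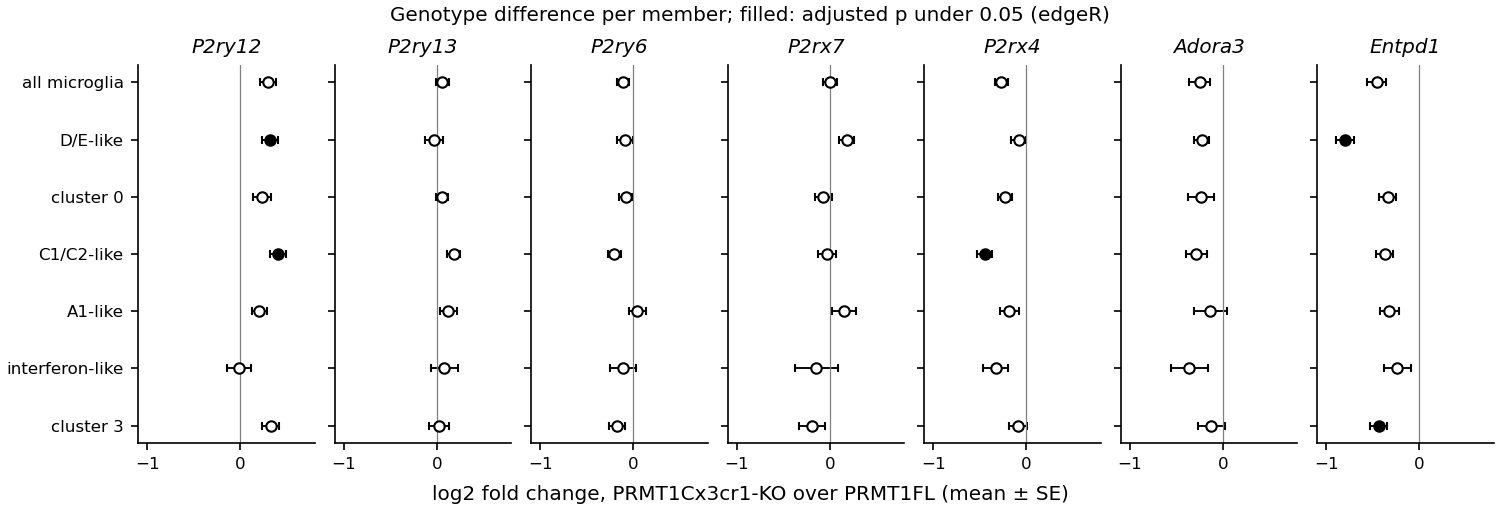
Log2 fold change of PRMT1Cx3cr1-KO over PRMT1FL for 7 members in all microglia and in 6 states; points are edgeR estimates from 2 mice against 2, bars are SEs, and filled points have an adjusted p under 0.05. Entpd1 is left of 0 in every row and farthest in D/E-like cells (-0.80), and P2ry12 is right of 0 except in interferon-like cells (-0.01).

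Whether the genotype effect itself differed between a state and the rest was tested with limma on sums per mouse and state. In the contrast of D/E-like cells against the other 5 states, 10.7% of 12285 genes were called, 6.63% with a higher and 4.08% with a lower effect. In the other 5 contrasts 0 to 0.317% were called, 0.22% in C1/C2-like cells and 0.0244% in cluster 3. Entpd1 was the only member called in any of the 42 contrasts: its fold change in D/E-like cells was lower than in the other states by 0.44 on the log2 scale (SE 0.09, adjusted p = 0.00131). The adjusted p was 0.0759 without PRMT1FL mouse 1 and 0.000906 to 0.0416 without any of the others. For P2ry12 the same difference was 0.10 (adjusted p = 0.369), and for P2rx4 it was 0.19 (adjusted p = 0.121). In C1/C2-like cells P2rx4 differed from the other states by -0.28 (adjusted p = 0.127). The calls of P2ry12 and P2rx4 in particular states were therefore not shown to differ from the other states.

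D/E-like cells were not uniform, and their makeup differed between genotypes, so they were divided further after the values above had been seen. The 4 subsets were led by Tnfsf9, Tnf and Cxcl2 (subset 1), by Hspa1b, Hspa1a and Sox4 (subset 2), by Cd74, H2-Aa and Ccl5 (subset 3) and by Treml4, Gm20045 and 4732440D04Rik (subset 4, median 2635 UMIs). Subset 1 made up 11.6 and 10.0% of D/E-like cells in the floxed mice, and 32.4 and 28.2% in the knockouts. Cells of a subset were not alike between genotypes either. In subset 1 Gdf15 stood at 6.94 and 7.14 CPM in the floxed mice against 336 and 356.5 CPM in the knockouts. Tmem119 was lower in both knockouts in subsets 1, 2 and 4 (ratios 0.63, 0.82 and 0.66) and higher in subset 3 (1.11). Entpd1 was lower in both knockouts than in both floxed mice in 4 of 4 subsets, as were 4.14% of all 11438 genes tested. Entpd1 had already been called lower in the sum of these cells, so its subset values are a description and no further test. In subset 1 it stood at 328 and 294 CPM against 155 and 132 CPM, and in subset 2 at 419 and 437 CPM against 284 and 261 CPM. In subset 3 it stood at 231 and 241 CPM against 185 and 147 CPM, and in subset 4 at 443 and 374 CPM against 302 and 222 CPM. The ratio of the genotype means was 0.461 in subset 1 and 0.637 to 0.703 in the others. With the 4 subsets weighted equally in each mouse, its log2 fold change was -0.71, beside -0.80 in the whole state.

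Of the genes tested, 14.5% were higher in both knockouts in 3 or 4 subsets. P2ry12, also called before in the whole state, was higher in 3 of the 4. In subset 1 the groups overlapped, with 1451 and 1337 CPM against 1476 and 1424 CPM. In subset 3 it stood at 814 and 783 CPM against 1174 and 1274 CPM, the widest ratio of the 4 at 1.53. Its equal-weight log2 fold change was 0.32. P2rx4 had no single direction: it was lower in the knockouts in subset 3 (168 and 172 against 143 and 144.5 CPM), higher in subsets 2 and 4, and overlapping in subset 1. Its equal-weight log2 fold change was 0.13, of opposite sign to the -0.08 of the whole state. P2rx7 was higher in both knockouts in 3 subsets, by 1.13 to 1.23 times.

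**Figure D4:**
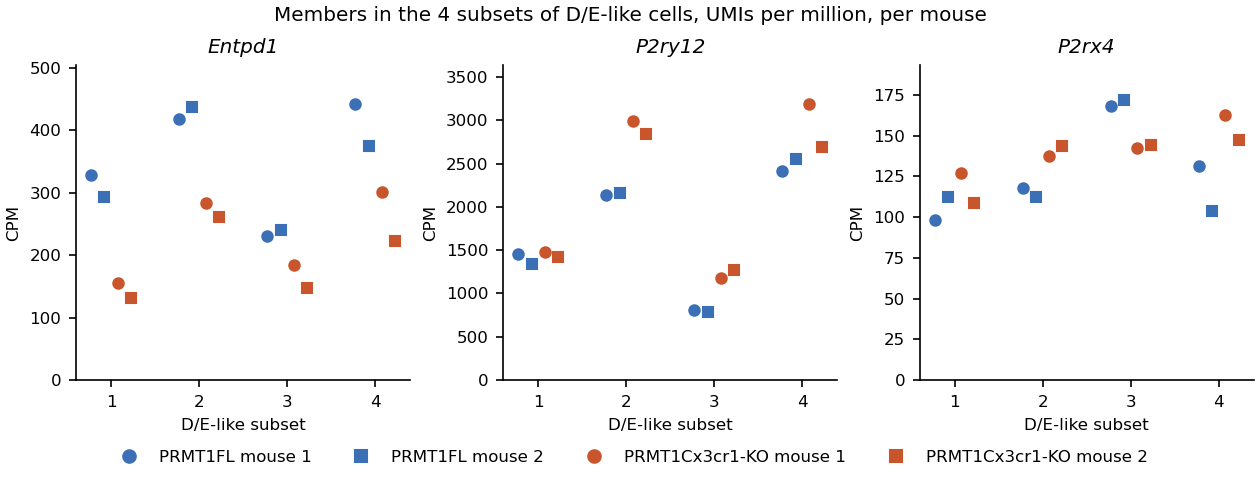
Level (CPM, linear axis from 0) of Entpd1, P2ry12 and P2rx4 in the 4 subsets of D/E-like cells; each point is a mouse. The 2 knockout mice lie below the 2 floxed mice for Entpd1 in all 4 subsets (ratios 0.461 to 0.703), lie above them for P2ry12 in subsets 2, 3 and 4, and change sides between subsets for P2rx4.

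Both ADP receptors stood highest in D/E-like cells, and their levels moved together over states. Their genotype differences were less alike (edgeR, PRMT1Cx3cr1-KO over PRMT1FL, log2). P2ry12 and P2ry13 gave 0.32 and -0.03 in D/E-like cells, 0.40 and 0.18 in C1/C2-like cells, and 0.30 and 0.06 over all microglia. The correlations below pool states and mice, so they do not show that the pair moved together between mice. Over 26 sums of state and mouse, which share libraries and depth, log2 levels of P2ry12 and P2ry13 had a Pearson r of 0.951, the highest of any pair of members, followed by P2ry6 and Entpd1 at 0.898. P2rx4 and P2ry12 had the lowest, 0.088. The genes most like P2ry12 among 7202 compared were Gpr34 (r = 0.976), Lgmn (0.961) and Tpst2 (0.956). P2ry13 was most like Tpst2 (0.966), Rp2 and Cmtm6, P2ry6 most like Arap3 (0.982), Nfatc2 and Tgfbr1, and P2rx7 most like Pid1 (0.960), Crebrf and Notch2. P2rx4 was most like Fyb (0.922), Arid5b and Sgpl1. Adora3 was most like Sall1 (0.952), the gene of a microglial transcription factor, then B4galt4 and Rab3ip. Entpd1 was most like Csf1r (0.968), the gene of the receptor for colony-stimulating factor, then Rhobtb1 and 3222401L13Rik.

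Outside microglia, P2rx7, P2ry6 and P2rx4 were found at 244, 337 and 214 CPM in 158 F-like cells, which carry markers of border-associated macrophages, and Adora3 at 14.3 CPM, from 8 UMIs. P2ry12 stood at 185 CPM there, Entpd1 at 191 CPM and P2ry13 at 112 CPM. In 468 non-myeloid cells, which should lack P2ry12, 10.3% held a P2ry12 UMI at a median of 2648.5 UMIs, against 77.9% of microglia at 6613 UMIs. Thinned to 1000 UMIs, over the cells of all mice together, the shares were 3.30% and 35.9%. For Entpd1 the thinned shares were 2.36% of non-myeloid cells, 11.9% of microglia and 21.0% of 67 neutrophil-like cells. For Adora3, unthinned, 24.4% of microglia and 1.71% of non-myeloid cells held a UMI.

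The rest of the pathway was followed with 50 further genes in 7 lists. Of these, 45 had a UMI in microglia, 33 were tested there and none passed in edgeR, with a median log2 fold change of -0.05 against -0.004 for all genes. Ampd3 passed in DESeq2 (0.81, adjusted p = 0.00681). With the state as a term 8 of 32 passed in limma, in a fit that called 23.2% of all genes. Of the 8, 4 were higher (Ampd3, Nlrp3, Adk and P2ry10b) and 4 lower (Slc29a1, Pycard, Kcnk13 and Enpp5). Their adjusted p-values in limma ran from 7.09e-05 for Slc29a1 to 0.0351 for Enpp5. In D/E-like cells 31 were tested, of which 6 rose and 4 fell, beside 8.61% and 7.72% of all genes. In C1/C2-like cells 1 of 31 rose (1.58% of all genes), in cluster 3 1 of 27 rose (1.66% of all genes), and in the other 3 states none passed. Levels below are CPM, not scaled by transcript length.

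Among further receptors no gene passed within a state. Of the 6 further P2Y receptors 3 were tested, led by P2ry10b at 6.53 CPM, then P2ry14 (1.61 CPM) and P2ry2 (0.764 CPM). Of 5 further P2X receptors 1 was tested, P2rx1 (1.11 CPM), ahead of P2rx6 (0.0703 CPM) and P2rx5 (0.0449 CPM). Of 3 further adenosine receptors 1 was tested, Adora1 (6.12 CPM), which couples to inhibitory G proteins, with Adora2a at 0.0344 CPM and Adora2b at 0.0156 CPM.

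Of 13 further ectonucleotidases, Entpd7 (20.01 CPM), Enpp1 (17.7 CPM) and Entpd6 (12.3 CPM) were highest. In D/E-like cells Entpd7, an intracellular relative of Entpd1, rose from 14.2 and 16.3 CPM to 23.0 and 24.7 CPM, a log2 fold change of 0.63 (adjusted p = 0.00992). Its direction was opposite to that of Entpd1 in the same cells. Enpp5 fell by 1.30 on the log2 scale (adjusted p = 0.0327) from 2.82 and 2.81 CPM to 0.996 and 1.30 CPM.

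Adenosine and inosine handling split. Adk, the kinase that returns adenosine to AMP, rose in D/E-like cells from 7.24 and 9.08 CPM to 17.5 and 16.2 CPM, a log2 fold change of 1.03 (adjusted p = 0.00276). Ampd3, which deaminates AMP, rose by 0.57 there (adjusted p = 0.0475) and by 1.97 in cluster 3 (adjusted p = 0.0236). Pnp, which cleaves inosine, fell by 0.38 on the log2 scale in D/E-like cells (adjusted p = 0.00893), from 258 and 252 CPM to 198 and 200.1 CPM. The nucleoside transporter Slc29a1 fell by 0.30 (adjusted p = 0.0452). Pnp (150 CPM), Slc29a3 (126 CPM) and Slc29a1 (44.7 CPM) were the highest of this list in microglia.

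Of 5 genes of nucleotide release, the channel gene Panx1 rose by 0.82 in D/E-like cells (adjusted p = 0.0356), from 6.38 and 4.94 CPM to 8.19 and 12.1 CPM, and Lrrc8d, a subunit of volume-regulated anion channels, rose by 0.30 (adjusted p = 0.0468). Lrrc8d (33.5 CPM), Lrrc8a (25.2 CPM) and the vesicular nucleotide transporter Slc17a9 (7.32 CPM) led the list.

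Signalling partners were led by the inhibitory G protein gene Gnai2 (895 CPM), Il1b (575 CPM) and the inflammasome adaptor Pycard (508.5 CPM), none of which passed within a state. Nlrp3, the sensor downstream of P2rx7, rose in D/E-like cells from 74.0 and 56.0 CPM to 116 and 105 CPM, a log2 fold change of 0.75 (adjusted p = 0.00251), and by 0.33 in C1/C2-like cells (adjusted p = 0.0459). Gsdmd, which forms pores after inflammasome activation, fell by 0.38 in D/E-like cells (adjusted p = 0.0119). Of the 32 further genes in the test between states, Nlrp3, Adk, Pnp and Entpd7 had a different effect in D/E-like cells. In that contrast 10.7% of all genes tested were called.

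**Figure D5:**
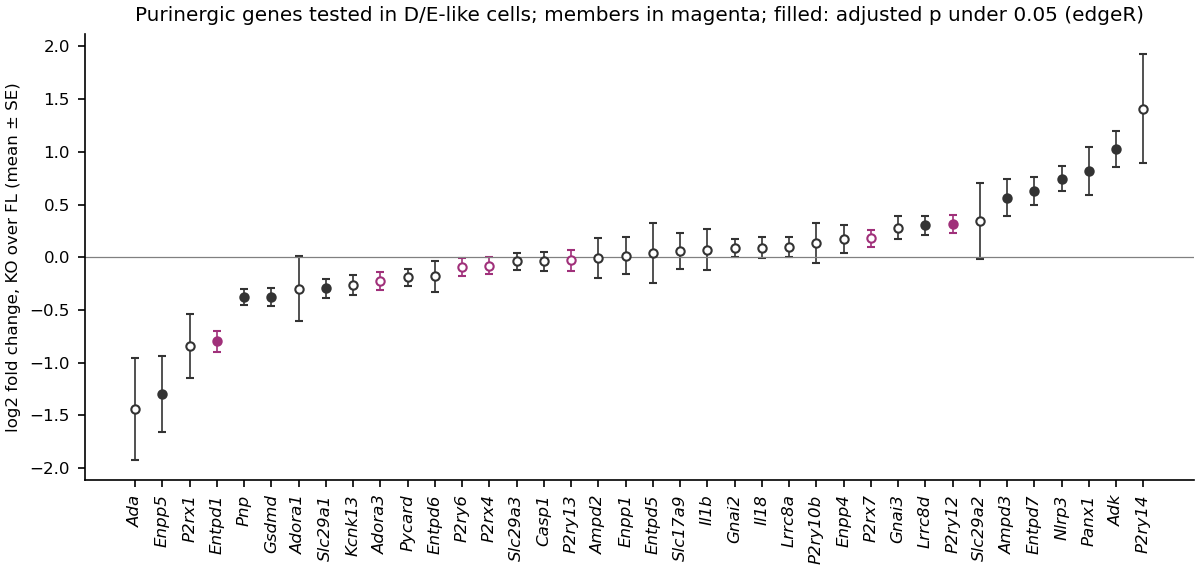
Log2 fold change of PRMT1Cx3cr1-KO (KO) over PRMT1FL (FL) in D/E-like cells for the 7 members (magenta) and 31 further purinergic genes (dark), ordered by value; points are edgeR estimates from 2 mice against 2, bars are SEs, and filled points have an adjusted p under 0.05. Entpd1 (-0.80) is the lowest member and P2ry12 (0.32) the highest, while Adk (1.03), Panx1 (0.82), Nlrp3 (0.75) and Entpd7 (0.63) are filled on the right.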

How the data were processed

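Brain myeloid cells were profiled by 3′ single-cell RNA sequencing (Single Cell 3′ kit v2). The authors deposited raw UMI counts per gene and barcode for each of the 4 libraries, made with Cell Ranger 3.1.0 on mm10 per the labels; the strand setting and annotation release are not given in the sources used here. A cell was kept if it had between 200 and 6000 genes and a mitochondrial share of its UMIs no higher than 10%. Scrublet's automatic threshold marked at most 0.02% of barcodes, so the top-scoring 6.63 to 9.24% were marked instead, and kept in the main results. Cells were scaled to 10000 UMIs and clustered with scanpy 1.11.5 (2000 variable genes, 20 components, 15 neighbours, Leiden resolution 0.3). Leaving genotype-differing genes out of the clustering used the same libraries as the tests. Cluster names were rebuilt from marker lists and are not the authors' annotation.

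UMIs were summed per mouse, over all microglia or per state with at least 30 cells in every mouse, and tested with edgeR 4.0.16 (quasi-likelihood, TMM, filterByExpr) in R 4.3.3, with Benjamini-Hochberg adjustment over all genes tested. Adjusted p-values under 0.05 were called. Differences between states were tested with limma 3.58.1 (voom, mouse as random block). DESeq2 1.42.0 was an alternative. In edgeR and DESeq2 the p-values rest on the spread between 2 mice a group, moderated by the spread of all genes in the fit. The limma fits used several sums of each mouse, with a correlation within mice shared by all genes. Their p-values rest on more sums than mice and can be too small for a difference between genotypes. Library totals were 76943248 to 99559644 UMIs, and intervals of shares cover counting error only. Counts were also simulated for the microglial comparison (13712 genes), with the same dispersion for every gene and log2 changes of 1 and 2 in well-counted genes. At each size 100% of the changed genes were recovered. Smaller changes, such as the -0.46 of Entpd1 over microglia, were not simulated, so recovery of changes of that size was not measured.

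The members, gene lists and markers were chosen with earlier results of these data known. The 8 members are always named. Of 50 further genes, those that passed a test or were among the 3 highest of their list are named, with the 3 genes most like each member by Pearson correlation of log2(CPM + 1). The division of D/E-like cells, the other sets of genes left out of the clustering, and the sums without B1-like cells or cluster 3 were chosen after seeing the data.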

Additional observations from a re-analysis of the deposited data

Results flagged for a closer look

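For 5 genes the genotype effect in D/E-like cells differed from that in the other microglial states by limma's test of the difference itself. The effect on Entpd1 was lower in D/E-like cells by a log2 difference of -0.443 (adjusted p = 0.00131). In D/E-like cells Entpd1 stood at 318 and 322 CPM in the floxed mice and at 200.1 and 173 CPM in the knockouts. The effect on Nlrp3 was higher there by 0.521 (adjusted p = 0.00628) and that on Adk by 0.795 (adjusted p = 0.0107). The effect on Pnp was lower by -0.484 (adjusted p = 2.9e-05), and that on Entpd7 was higher by 0.476 (adjusted p = 0.03). In the same contrast 10.7% of all genes tested were called.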

How the results depend on the processing

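Of 391 values recomputed under alternatives, 312 kept their direction and their side of the threshold or stayed within the spread, 22 newly passed it, 17 no longer passed it, 29 moved and 11 changed sign. The cause of these changes was not tested. Genes called over all microglia numbered 708 in DESeq2, 1562 with no filter on low counts, 749 over all cells, 2846 with the state as a term, and 4 to 2626 with 1 mouse left out (4 without PRMT1FL mouse 1, 2626 without PRMT1Cx3cr1-KO mouse 1). With no filter P2ry12 gave 0.304, P2rx4 -0.261, Entpd1 -0.451 and Nt5e 1.836, all past the threshold; DESeq2 gave P2ry12 0.301 and Entpd1 -0.454; with the state as a term P2ry12 gave 0.29, P2rx4 -0.231, Adora3 -0.233 and Entpd1 -0.461. P2rx7 changed sign at 5% mitochondrial UMIs (-0.004), without marked doublets (-0.013), without B1-like cells (-0.008), without PRMT1FL mouse 1 (-0.068) and without PRMT1Cx3cr1-KO mouse 1 (-0.041).

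A genotype left with 1 mouse was assumed to vary like the other. With each mouse left out, log2 fold changes over microglia ranged from 0.202 to 0.397 for P2ry12, -0.016 to 0.137 for P2ry13, -0.328 to -0.204 for P2rx4, -0.068 to 0.078 for P2rx7, -0.409 to -0.097 for Adora3, -0.59 to -0.33 for Entpd1 and 0.924 to 2.354 for Nt5e. Calls in the 42 pairs of member and state numbered 1 to 12; P2ry12 ranged from 0.285 to 0.348 in D/E-like cells, 0.327 to 0.478 in C1/C2-like cells and -0.164 to 0.149 in interferon-like cells (0.149 without PRMT1FL mouse 2), P2rx4 from -0.537 to -0.361 in C1/C2-like cells and -0.215 to 0.035 in cluster 3, and Entpd1 from -0.474 to -0.398 in cluster 3. The difference between states was called for 0 to 1 members, with Entpd1 at -0.517 to -0.382; it was -0.426 without PRMT1FL mouse 1.

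Calls in the 42 pairs numbered 3 at resolution 0.7 and 3 with another seed. P2ry12 in D/E-like cells lost its call at resolution 0.7 (0.272) and with no gene left out of the clustering (0.236), where P2rx4 gave 0.012 and Adora3 newly passed at -0.368. P2ry12 in C1/C2-like cells lost its call without marked doublets (0.37), at resolution 0.7 (0.329) and with another seed (0.252), where P2rx4 also lost its call (-0.349). P2ry12 in interferon-like cells gave 0.016 with another seed and 0.035 with purinergic genes kept. Entpd1 in cluster 3 gave -0.436 in DESeq2 (adjusted p = 0.0728). Thinning to 1000 UMIs put the D/E-like ratio at 5.615 for P2ry12, 3.468 for P2ry13 and 2.332 for P2ry6, and leaving out doublets put it at 5.003 for P2ry12 and 2.284 for P2ry6. As means of the 4 mice, weighted equally, thinned shares of microglia with a UMI were 35.91% for P2ry12, 11.91% for P2ry13, 16.51% for P2ry6, 4.41% for P2rx7, 12.38% for P2rx4, 4.315% for Adora3 and 12.02% for Entpd1. Nt5e had no value in the thinned or limma fits.

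In the sources, same-numbered mice share only a number. Over 13843 genes their deviations from the group means had r = 0.139. With 2 pairs this cannot decide whether they were handled together. With the replicate block, 273 genes were called over microglia, against 65 without it, and 8 of the 42 pairs, against 5. P2ry12 was at 0.299 and Entpd1 at -0.463 over microglia, neither past the threshold.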
